A study of Mus musculus with 4 samples.

Results

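Intestinal epithelial cells keep their regional character through a small set of transcription factors, and 7 of them were examined here in mouse colonic organoids given sodium butyrate: the caudal homeobox genes *Cdx1* and *Cdx2*, the nuclear receptor genes *Hnf4a* and *Hnf4g*, the intestine-specific homeobox gene *Isx*, the zinc finger gene *Gata6* and the ETS family gene *Elf3*. They were listed by name for their known roles, with no threshold on their values, and are 7 of the 36144 gene names in the table. Organoids from the colon of 1 wild-type (WT) male mouse aged 24 weeks were at passage 3, were untreated or given 2 mM sodium butyrate, and were sequenced as bulk poly-A RNA at 48 h (day 2) and 72 h (day 3). The medium of all 4 groups held EGF, Noggin, R-spondin, the GSK3 inhibitor CHIR99021 and the ROCK inhibitor Y-27632. The study text describes Hes1-GFP reporter mice and crypts of the proximal colon, so that labels and text differ on the genotype, which entered no comparison. Each condition was 1 library (1 untreated and 1 butyrate library at each time), and no difference below can therefore be set against replicate error. Intervals in parentheses are 95% intervals for counting error only, exact except for differences between times, and no p-value was computed.

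CDX proteins are homeodomain activators that set the intestinal programme in the embryonic gut and hold it in the adult, where loss of CDX2 is known to let gastric genes appear. HNF4 receptors work with them on enhancers of absorptive cells, among them genes of lipid transport and the brush border. GATA6 acts in the crypt and the colon, its relative GATA4 marks the small intestine, ISX represses carotenoid uptake and cleavage, and ELF3 takes part in the maturation of absorptive and goblet cells.

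The RefSeq promoter table (GRCm38.p6) held 5 entries for 4 of the 7 factors. Of these, both *Hnf4a* starts are printed because the gene has 2 promoters, 40298 bp apart, whose transcripts are summed in 1 gene count, and *Cdx2* and *Elf3* are printed because they carry the contrast in time described further on. Each window runs from 250 bases before to 50 bases after the start site, 5′ to 3′ on the gene's strand, and capitals mark a motif match. In the upstream *Hnf4a* window (P2) this is the motif of the GATA factors, in the downstream one (P1) the HNF1 motif read on the opposite strand, side by side, and in *Cdx2* the HNF1 motif on the gene's own strand; the *Elf3* window held no match to the letters searched. The windows are chr2:163506607-163506906 (+) for P2, chr2:163546905-163547204 (+) for P1, chr5:147307200-147307499 (−) for *Cdx2* and chr1:135258423-135258722 (−) for *Elf3*.
Hnf4a P2: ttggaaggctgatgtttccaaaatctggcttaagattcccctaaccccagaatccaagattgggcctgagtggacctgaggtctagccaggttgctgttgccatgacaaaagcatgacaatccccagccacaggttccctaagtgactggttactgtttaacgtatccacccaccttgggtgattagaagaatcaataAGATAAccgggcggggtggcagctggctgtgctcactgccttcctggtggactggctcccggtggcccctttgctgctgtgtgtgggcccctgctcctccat
Hnf4a P1: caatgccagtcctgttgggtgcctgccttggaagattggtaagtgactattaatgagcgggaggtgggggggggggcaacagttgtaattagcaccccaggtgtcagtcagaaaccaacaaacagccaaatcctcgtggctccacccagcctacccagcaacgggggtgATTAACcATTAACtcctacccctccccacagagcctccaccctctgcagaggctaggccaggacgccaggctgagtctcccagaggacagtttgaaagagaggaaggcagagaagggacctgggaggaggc
Cdx2: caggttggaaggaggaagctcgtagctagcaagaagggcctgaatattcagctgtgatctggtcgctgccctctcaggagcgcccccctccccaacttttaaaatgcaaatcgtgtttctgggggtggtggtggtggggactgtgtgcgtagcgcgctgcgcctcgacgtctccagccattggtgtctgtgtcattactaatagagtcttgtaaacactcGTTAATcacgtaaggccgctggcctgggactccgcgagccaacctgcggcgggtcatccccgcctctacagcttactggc
Elf3: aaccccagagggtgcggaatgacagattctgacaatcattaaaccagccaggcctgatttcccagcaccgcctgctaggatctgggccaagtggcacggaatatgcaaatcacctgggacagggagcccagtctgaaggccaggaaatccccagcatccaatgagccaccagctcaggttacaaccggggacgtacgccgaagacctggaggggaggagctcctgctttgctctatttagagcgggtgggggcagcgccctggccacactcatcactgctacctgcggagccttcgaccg
Counted from the start site, the matches begin at −52 in P2, at −81 and −74 in P1 and at −30 in *Cdx2*. The motifs were searched on both strands among 32851 promoters of the same length. The HNF1 motif was searched as GTTAAT, which 7.1% of promoters held. For the GATA family the letters were AGATAA, found in 11.2% of promoters. The CDX motif was TTTATNG, with matches in 10.9%. The letters searched for HNF4 were CAAAGTNCA, which occurred in 1.41%. The ETS motif was searched as CCGGAA, and 14.9% of promoters held it. These matches describe the letters only and not binding.

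The libraries held 20790225 to 24207840 counts, of which genes of the mitochondrial genome took 14.07% to 18.37%, and the floor of 3 counts lay between 0.124 and 0.144 CPM. All 7 factors were among the 13979 genes kept by the study's filter (above 10 counts in 2 or more libraries) and among the 11652 whose normalised counts averaged 50 or more, over which shares and medians were taken. Counts were divided by DESeq2 size factors of 0.926 to 1.10. The labelled tissue was checked against markers: the epithelial genes *Epcam*, *Cdh1*, *Krt8*, *Krt18*, *Krt19*, *Cldn7* and *Cldn3* summed to 141800 to 157600 normalised counts, and 10 mesenchymal and endothelial genes to 102.6 to 174.8, with *Col3a1* and *Lum* at 0 in all libraries. Of 7 immune genes, *Cd68* stood apart with 128, 1309, 172 and 420 counts (untreated and butyrate at 48 h, then at 72 h), while the other 6 summed to 41.73 to 71.28 normalised counts and the pan-leukocyte gene *Ptprc* was at 5 to 15 counts. The colonic genes were mixed, with *Car1* at 17453 to 49510 counts, *Hoxd13* at 2 to 5 and *Fxyd4* at 0 in every library. In bulk RNA, fewer cells of a type and less RNA per cell cannot be told apart.

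Levels were first compared between the factors as counts per kb of exon length, scaled to a common sum as TPM values are. In untreated organoids at 48 h the order was *Elf3* (428.5 per kb), *Isx* (399.5), *Hnf4a* (304.5), *Cdx2*, *Cdx1* (244.5), *Gata6* (36.05) and *Hnf4g* (11.03). The intervals of *Cdx2* (243.1 to 256.9) and *Cdx1* (236.8 to 252.4) overlapped, and those of the other neighbours did not. With butyrate at 48 h, *Isx* (427.9) and *Elf3* (426.0) were not separable and *Cdx2* (273.7) was above *Cdx1* (241.1). In untreated organoids at 72 h *Isx* (314.2) and *Hnf4a* (306.3) led and were not separable, followed by *Elf3* (212.8), *Cdx1* (210.1) and *Cdx2* (198.5), each of which overlapped its neighbour, although the direct ratio of *Cdx2* to *Cdx1* per kb, 0.944 (0.904 to 0.986), was below 1. With butyrate at 72 h *Isx* (319.6) led, *Hnf4a* and *Elf3* were both at 255.4, and *Cdx2* (191.8) and *Cdx1* (178.4) followed. *Gata6* and *Hnf4g* were sixth and seventh in all 4 libraries. The first 5 factors lay above 96.3% to 98.5% of the filtered genes, *Gata6* above 71.5% to 77.2% and *Hnf4g* above 36.6% to 45.9%. With the length of the longest transcript, the order of *Isx* and *Elf3* with butyrate at 48 h and of *Hnf4a* and *Isx* in untreated organoids at 72 h was the other way round.

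**Figure D1:**
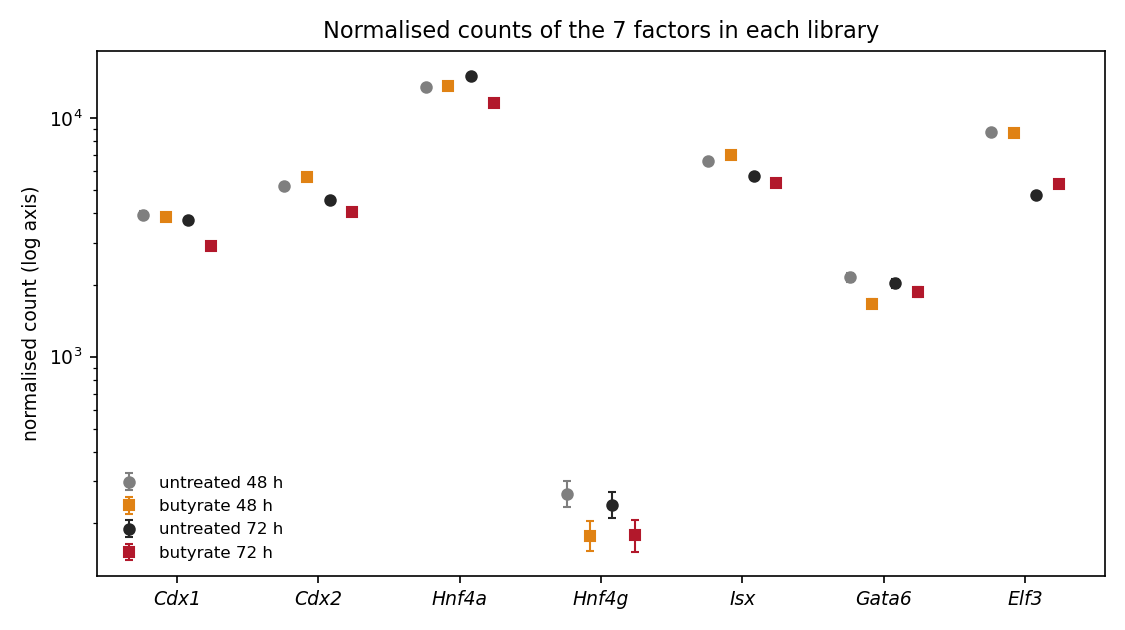
Normalised counts (counts divided by the size factor, log axis) of the 7 factors in the 4 libraries, with exact 95% Poisson intervals that cover counting error only. Each point is 1 library; *Elf3* spans 4780 to 8740 and its 48 h libraries lie above its 72 h libraries, while *Hnf4g* lies between 177.8 and 266.9.

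The range of the factors across the 4 libraries was set beside that of all genes with a mean of at least 50. The highest library was 1.29-fold (*Gata6*) to 1.5-fold (*Hnf4g*) above the lowest for 6 of the 7, and 1.83-fold for *Elf3*, against a median of 1.35-fold over 11652 genes. A wider range than that of *Elf3* was seen in 15.4% of genes, and than that of the other 6 in 32.9% (*Hnf4g*) to 59.4% (*Gata6*). The genes compared were not matched to the factors in abundance, and counting error widens the range of genes with few counts. The same limit holds for the shares of genes changed as far that are given below.

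The effect of butyrate was asked at each time, and with the study's scaling no factor reached a 1.5-fold difference at either, with *Hnf4g* at 48 h on the line itself. At 48 h, 0 of 7 were at least 1.5-fold higher, where 8.93% of all genes were, and 0 of 7 at least 1.5-fold lower, where 6.44% were. At 72 h the counts were 0 of 7 higher, against 5.88% of genes, and 0 of 7 lower, against 5.13%. The median log2 fold change of the factors was −0.01 at 48 h, beside −0.03 for all genes, and −0.16 at 72 h, beside −0.00. At 72 h the interval lay below 0 for 6 factors and above 0 for *Elf3*; at 48 h it lay above 0 for 2 (*Cdx2* and *Isx*), below 0 for 2 (*Hnf4g* and *Gata6*) and included 0 for 3. Scaling to the summed counts of the 7 epithelial genes, an alternative chosen after the data were seen, shifted the 72 h median over all genes by 0.15 and changed the 72 h tally: the interval was then below 0 for 2 (*Cdx1* and *Hnf4a*), above 0 for 2 (*Isx* and *Elf3*) and included 0 for 3, with a median of −0.012. At 48 h that scaling left the tally at 2, 2 and 3. Total count scaling shifted the 72 h median over all genes by 0.05 and gave −0.038 for *Isx* and −0.070 for *Gata6*. Intervals were not computed under total count scaling, so whether both factors stayed below 0 beyond counting error was not checked.

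*Cdx1*, on chromosome 18 from 61018862 to 61036199 (−) in GRCm38, is expressed along crypts and is an early target of Wnt signalling in the gut. At 48 h there were 3850 counts without and 4265 with butyrate, and at 72 h 3774 without and 2706 with it. Normalised, these were 3937 and 3870 at 48 h and 3726 and 2923 at 72 h, so that the butyrate library at 72 h was the low one and the other 3 lay close together. With butyrate the log2 fold change was −0.02 (−0.09 to 0.04) at 48 h, against −0.35 (−0.42 to −0.28) at 72 h, where 12.4% of all genes were as far down. The 72 h value was −0.20 with the epithelial scaling.

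*Cdx2* (chromosome 5, 147300805 to 147307270, −) encodes the main intestinal identity factor of the adult. Its counts were 5085 and 6256 at 48 h and 4605 and 3758 at 72 h, untreated before butyrate. Normalised, the 48 h values were 5200 and 5676 and the 72 h values 4547 and 4059, with the highest and the lowest library both treated. Butyrate over untreated gave a log2 value of 0.13 (0.07 to 0.18) at 48 h but −0.16 (−0.23 to −0.10) at 72 h. The latter was −0.012 (−0.074 to 0.051) with the epithelial scaling.

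The ratio of the 2 CDX genes within a library does not depend on scaling. *Cdx2* over *Cdx1* counts stood at 1.32 (1.27 to 1.38) in untreated and 1.47 (1.41 to 1.53) in butyrate organoids at 48 h, and at 1.22 (1.17 to 1.27) and 1.39 (1.32 to 1.46) at 72 h. Butyrate libraries thus had more *Cdx2* per *Cdx1* at both times, beyond counting error.

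*Hnf4a* (chromosome 2, 163506808 to 163572910, +) had the most counts of the 7, with 13226 (untreated) and 15018 (butyrate) at 48 h, then 15177 and 10686 at 72 h. Normalised, these were 13520, 13630, 14990 and 11540, in the same order, so that the 48 h libraries were alike and the 72 h libraries lay on either side of them. The log2 difference between butyrate and untreated was 0.01 (−0.02 to 0.04) at 48 h. At 72 h it stood at −0.38 (−0.41 to −0.34), a value that 10.9% of genes matched or passed, and at −0.22 with the epithelial scaling.

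*Hnf4g* (chromosome 3, 3508030 to 3658052, +), the paralogue that shares binding sites with *Hnf4a* in the intestine, was the least abundant factor. Untreated libraries held 261 (48 h) and 243 (72 h) counts and butyrate libraries 196 and 165, or 266.9 and 239.9 against 177.8 and 178.2 after normalisation. Both butyrate libraries were below both untreated libraries. At 48 h the log2 fold change of −0.58 (−0.86 to −0.31), a ratio of 0.668, was just short of the 1.5-fold line, and 6.49% of genes were as far down. At 72 h it measured −0.43 (−0.72 to −0.14), or −0.28 (−0.57 to 0.014) with the epithelial scaling. The 48 h value was past the line in 4 of 6 alternative settings, TMM among them, and ran from −0.57 to −0.61. The ratio of *Hnf4a* to *Hnf4g* counts was 50.7 (44.8 to 57.5) in untreated and 76.6 (66.6 to 88.7) in butyrate organoids at 48 h; at 72 h it was 62.5 (55.0 to 71.2) and 64.8 (55.5 to 76.0), which were not separable.

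*Isx* (chromosome 8, 74873173 to 74893506, +) is a homeobox repressor of the vitamin A pathway and is restricted to the intestine. Counts were 6445 and 7756 at 48 h and 5782 and 4966 at 72 h, which gave 6590, 7037, 5709 and 5363 after normalisation. Both 48 h libraries were above both 72 h libraries. The butyrate library was higher by a log2 value of 0.09 (0.05 to 0.14) at 48 h, and the 72 h value of −0.09 (−0.15 to −0.04) turned to 0.062 with the epithelial scaling. Over *Cdx2*, its count ratio stayed between 1.24 and 1.32 in the 4 libraries.

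*Gata6* (chromosome 18, 11052064 to 11085635, +) had 2111 and 2055 counts in the untreated libraries (48 h, 72 h) and 1842 and 1726 in the butyrate libraries. The normalised values of 2159, 1671, 2029 and 1864 put both butyrate libraries below both untreated ones. The 48 h log2 fold change was −0.37 (−0.46 to −0.28); that at 72 h was −0.12 (−0.22 to −0.03), and 0.030 with the epithelial scaling. *Gata4*, the small intestinal relative, was far lower, with 23 and 61 counts in the untreated libraries and 98 and 155 in the butyrate libraries. *Gata4* was higher with butyrate by a log2 fold change of 1.87 (1.25 to 2.64) and 1.46 (1.04 to 1.93). The *Gata6* to *Gata4* count ratio was accordingly 91.8 (61.0 to 145) in untreated and 18.8 (15.3 to 23.3) in butyrate organoids at 48 h, and 33.7 (26.1 to 44.2) and 11.1 (9.44 to 13.2) at 72 h. Even at its lowest, the ratio per kb was 6.68 (5.66 to 7.92).

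*Elf3* (chromosome 1, 135253575 to 135258568, −) is a regulator of epithelial maturation, and 8547 and 9548 of its reads were counted at 48 h (untreated, butyrate), against 4841 and 4906 at 72 h. Normalised, the untreated and butyrate libraries were at 8740 and 8663 at 48 h and at 4780 and 5299 at 72 h. Butyrate and untreated libraries were not separable at 48 h, at a log2 difference of −0.01 (−0.06 to 0.03), and differed by 0.15 (0.09 to 0.21) at 72 h, or 0.30 with the epithelial scaling. The antisense gene *Gm26642* overlaps *Elf3* on the other strand and holds 6.14% of its 31-base words, against at most 1.02% shared with other genes for the remaining factors; whether counting used strand is not given in the sources used here, so reads of the pair may not be told apart.

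**Figure D2:**
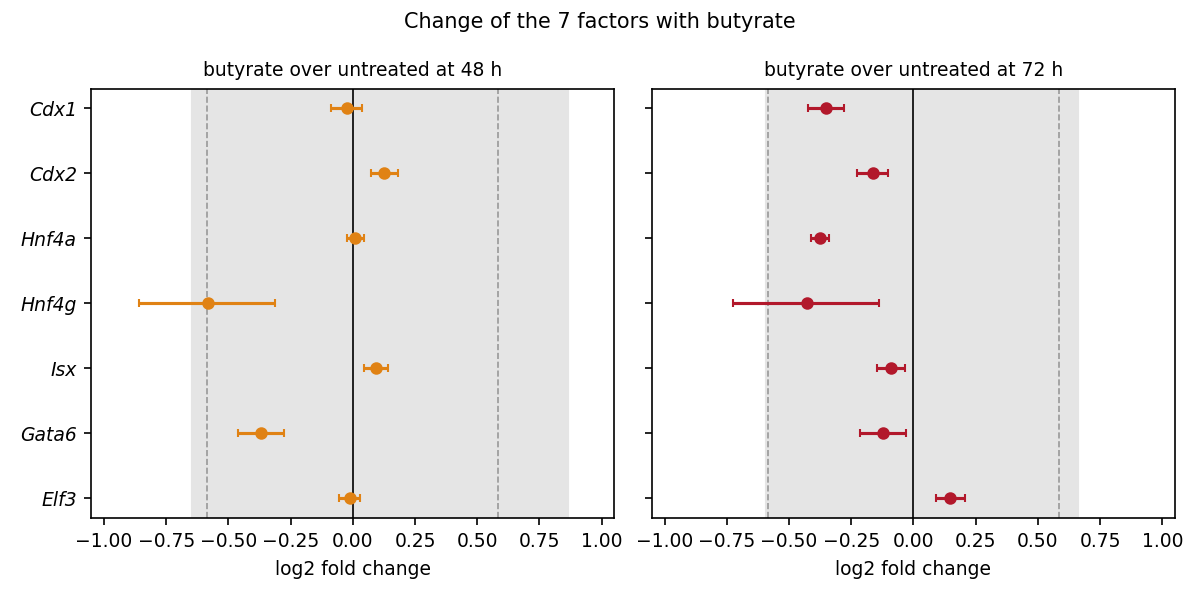
Log2 fold change of butyrate over untreated for each factor at 48 h (left) and 72 h (right), with exact 95% counting intervals; dashed lines mark 1.5-fold and the grey band the 5th to 95th percentile of 11652 genes. At 72 h *Elf3* is at 0.15 and the other 6 lie between −0.43 and −0.09, of which *Isx* and *Gata6* change sign with the epithelial scaling.

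The change with butyrate moved between the times for 6 of the 7 beyond counting error. The difference of the log2 fold changes, 72 h minus 48 h, was −0.39 (−0.44 to −0.34) for *Hnf4a*, −0.33 (−0.42 to −0.23) for *Cdx1*, −0.29 (−0.37 to −0.21) for *Cdx2* and −0.18 (−0.26 to −0.11) for *Isx*. It was of the other sign for *Gata6*, at 0.25 (0.12 to 0.38), and for *Elf3*, at 0.16 (0.09 to 0.23). *Hnf4g*, at 0.16 (−0.23 to 0.55), was the one for which no shift was detectable. With the epithelial scaling the difference was −0.0049 for *Isx*, −0.15 for *Cdx1*, −0.11 for *Cdx2* and −0.21 for *Hnf4a*, and 0.43 for *Gata6* and 0.34 for *Elf3*.

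The change over time within each treatment was compared next, and *Elf3* was the factor past 1.5-fold. In untreated organoids 0 of 7 factors were at least 1.5-fold higher at 72 h than at 48 h, against 3.08% of genes, and 1 of 7 at least 1.5-fold lower, against 3.32%. With butyrate these were 0 of 7, against 6.63%, and 1 of 7, against 8.44%. The 1 lower factor was *Elf3* both times, with a log2 change of −0.87 (−0.92 to −0.82) in untreated organoids, which 1.28% of genes reached, and −0.71 (−0.76 to −0.66) with butyrate, which 5.7% reached. Its ETS family relative *Ehf* had 13483, 14505, 13006 and 10897 counts in the same order and a log2 change of −0.10 and −0.16. The *Elf3* to *Ehf* ratio of counts was therefore 0.634 (0.617 to 0.651) and 0.658 (0.641 to 0.676) at 48 h and 0.372 (0.36 to 0.385) and 0.45 (0.435 to 0.466) at 72 h, with both 72 h libraries below both 48 h libraries.

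Between the untreated libraries the remaining changes were small. *Hnf4a* was higher at 72 h by a log2 value of 0.15 (0.11 to 0.18). *Isx* changed by −0.21 (−0.26 to −0.16), *Cdx2* by −0.19 (−0.25 to −0.14), *Gata6* by −0.09 and *Cdx1* by −0.08, all with intervals below 0. Total count scaling gave 0.070 for *Hnf4a*, −0.16 for *Cdx1* and −0.17 for *Gata6*, and the epithelial scaling 0.050 for *Hnf4a*. *Hnf4g*, at −0.15 (−0.41 to 0.10), was not separable from 0. Between the butyrate libraries the values were −0.48 (−0.54 to −0.43) for *Cdx2*, −0.40 (−0.47 to −0.34) for *Cdx1*, −0.39 (−0.44 to −0.34) for *Isx* and −0.24 (−0.28 to −0.20) for *Hnf4a*. *Gata6* was higher at 72 h with butyrate, by 0.16 (0.06 to 0.25), and *Hnf4g* was at 0.00 (−0.30 to 0.31). How far these exceed the untreated changes depends on scaling: with the epithelial scaling *Isx* changed by −0.30 in untreated organoids and −0.31 with butyrate, and *Cdx2* by −0.29 and −0.40. The median of the 7 was −0.15 in untreated organoids and −0.39 with butyrate, beside −0.00 and −0.01 for all genes.

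**Figure D3:**
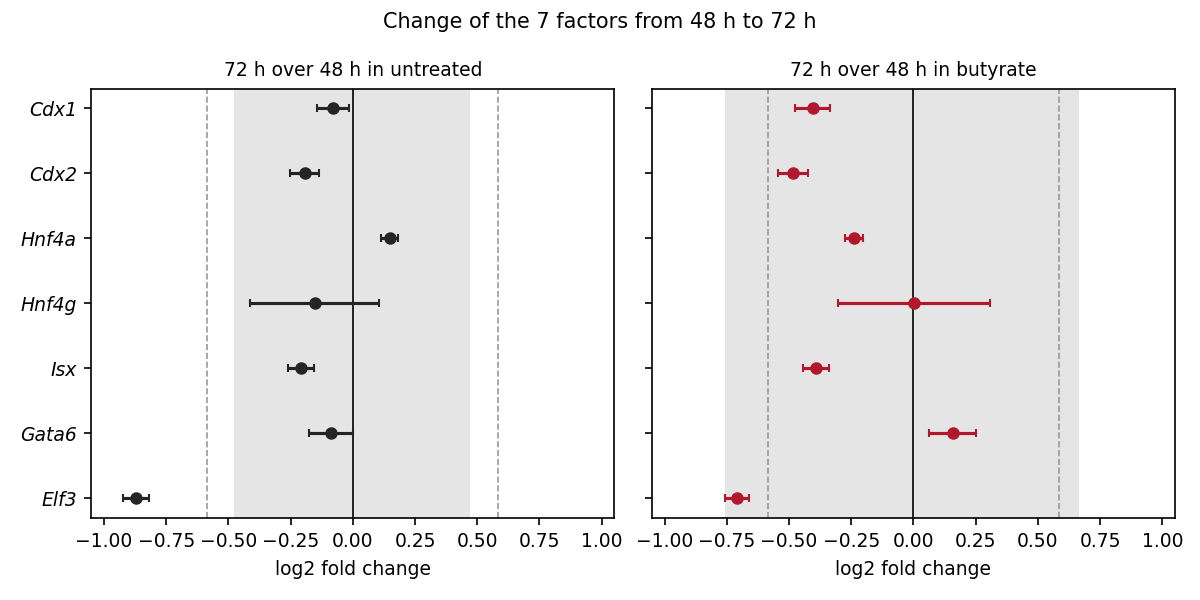
Log2 change from 48 h to 72 h of each factor in untreated (left) and butyrate-treated (right) organoids, drawn as in the plot of the changes with butyrate. *Elf3* lies past the 1.5-fold line in both, at −0.87 and −0.71, and *Cdx2*, *Cdx1* and *Isx* lie between −0.48 and −0.39 with butyrate.

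**Figure D4:**
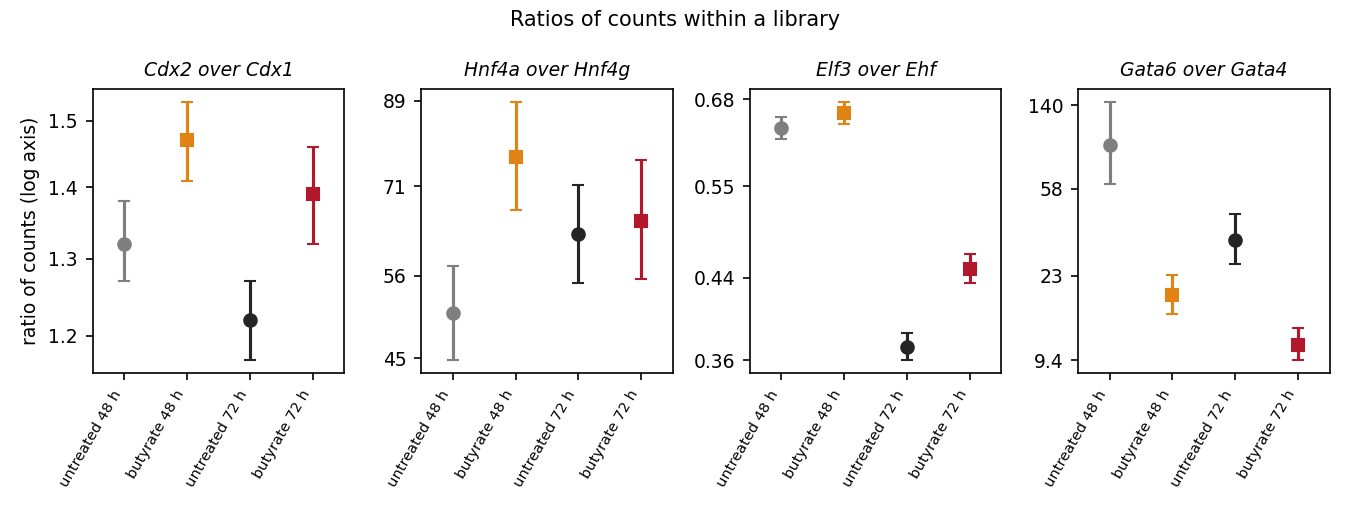
Ratio of the counts of a pair of genes within each library (log axis, with an axis of its own for each pair) and its exact 95% counting interval; circles are untreated and squares butyrate libraries. *Cdx2* over *Cdx1* is higher in the butyrate library at both times, *Elf3* over *Ehf* falls into a 48 h pair and a 72 h pair, and *Gata6* over *Gata4* runs from 91.8 down to 11.1.

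Profiles over the 4 libraries were compared as Euclidean distances between centred log2 values. The closest pair of factors was *Cdx2* and *Isx*, at 0.069, with 27 genes nearer to *Cdx2* and 28 nearer to *Isx*. Among the genes nearest to each factor were *Edf1*, *Oaz1-ps* and *Surf1* for *Cdx1* (0.035 to 0.041), *Vcpkmt* and *Cyb561d2* for *Cdx2* (0.032 and 0.033), *B3gnt2*, *Slc25a16* and *Sdcbp2* for *Hnf4a* (0.015 to 0.031), and *Zfp597*, *Dapp1* and *Ubtd1* for *Hnf4g* (0.040 to 0.061). They were *Surf2*, *Wdr74* and *Gpaa1* for *Isx* (0.018 to 0.031), *Brd7*, *Vps18* and *Gpbp1l1* for *Gata6* (0.019 to 0.025) and *Slc2a4rg-ps*, *Zfp420* and *Gm14295* for *Elf3* (0.044 to 0.099). Within a distance of 0.2 there were 23 genes for *Elf3*, 190 for *Hnf4g*, 590 to 891 for *Cdx1*, *Cdx2*, *Hnf4a* and *Isx*, and 1276 for *Gata6*. With 4 libraries many genes share a profile, and the likeness is a description of these values.

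Genes tied to these factors were then read beside them, each list by its counts and its median. Among 17 other intestinal transcription factors, 14 had a mean of at least 50, 2 of which (*Gata4* and *Onecut2*, with log2 fold changes of 0.87 and 0.74 for the latter) were at least 1.5-fold higher with butyrate at both times and 0 lower at either. *Foxa1*, a forkhead factor of the endoderm, changed by −0.50 and −0.09. The median of these 14 was −0.11 at 48 h and −0.13 at 72 h. *Cdx4*, the remaining gene of the CDX family, had 0 counts in all libraries.

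Of 12 measured genes linked to CDX2, 5 were higher at 48 h and lower at 72 h and 5 lower at both times with both intervals clear of 0, while *Cdx2* itself was at 0.13 and −0.16; the remaining 2, *Cdh17* and *Mep1b*, had an interval that included 0. By sign alone these patterns held 6 and 6 of the 12, beside 17.4% and 32.6% of all genes. With the epithelial scaling *Cdx2* at 72 h was at −0.012 (−0.074 to 0.051) and *Slc26a3*, of the first 5, at −0.045 (−0.11 to 0.020). *Sis* and *Car1* kept the pattern under that scaling, and the others of the 5 were not rechecked. The list has 13 genes, of which 12 had a mean of at least 50. Of these, 3 were at least 1.5-fold higher and 0 lower at 48 h, where 8.93% and 6.44% of all genes were. At 72 h, 0 were higher and 5 lower, against 5.88% and 5.13% of all genes. The list medians were 0.01 and −0.53, beside −0.03 and −0.00 for all genes. *Sis*, the brush border disaccharidase, went from 422 to 847 counts with butyrate at 48 h but stood at 2357 without and 543 with it at 72 h, log2 fold changes of 0.83 and −1.99. The chloride exchanger gene *Slc26a3* changed by 1.29 and −0.20 and the carbonic anhydrase gene *Car1* by 1.14 and −0.88. The goblet cell mucin gene *Muc2*, of those lower at both times, changed by −0.49 and −0.87. Mature cell and crypt genes are given beside these: of 10 surface colonocyte genes, which share *Car1*, *Slc26a3* and *Krt20* with the CDX2 list, 3 were higher and 2 lower at 48 h and 0 higher and 4 lower at 72 h, and of 7 crypt base and cycling genes 0 were higher and 1 lower at 48 h and 3 higher and 0 lower at 72 h. *Lgr5*, the stem cell marker, changed by −0.94 and 0.79, whereas *Mki67*, *Top2a* and *Ascl2* were higher at both times, and the median of the 7 crypt genes was −0.00 at 48 h and 0.48 at 72 h. The part of these cell states in the values of *Cdx2*, *Cdx1* and *Hnf4a* was not tested.

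The HNF4 list of 13 lipid and brush border genes had 9 with a mean of at least 50. At 48 h, 0 of them were at least 1.5-fold higher and 2 lower, against 8.93% and 6.44% of all genes. At 72 h, 1 was higher and 4 lower, against 5.88% and 5.13%. The list medians were 0.21 and −0.48, or 0.055 and −0.31 with the looser filter (above 10 counts in 2 or more libraries). *Ttr*, which encodes transthyretin, was at 197 and 171 counts without butyrate and at 49 and 22 with it, log2 fold changes of −2.15 and −2.78. The fatty acid binding protein gene *Fabp2* changed by −0.91 and −1.21, and the brush border myosin gene *Myo1a* by 0.35 and −0.93. *Apoa4*, *Apoc3* and *Fabp1* had 0 or 1 count in every library. *Hnf4a* was at 0.01 and −0.38 beside these values and *Hnf4g* at −0.58 and −0.43.

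*Bco1*, the carotene cleavage enzyme that ISX represses, was counted 40 and 52 times without butyrate (48 h, 72 h) and 269 and 93 times with it. Its log2 fold change with butyrate was 2.55 (2.09 to 3.09) and 0.95 (0.46 to 1.49), while that of *Isx* was 0.09 and −0.09. *Scarb1*, the scavenger receptor gene that is the other known ISX target, changed by 0.33 and 0.24.

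**Figure D5:**
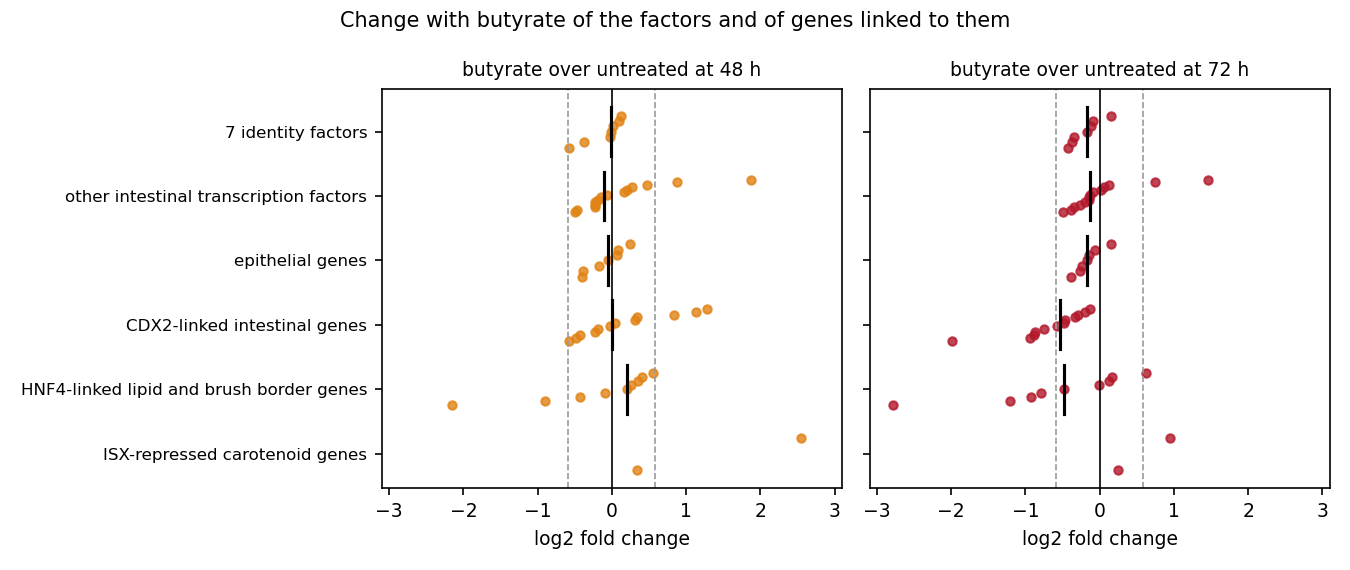
Log2 fold change of butyrate over untreated at 48 h (left) and 72 h (right) for the 7 factors and for lists of genes linked to them; each point is a gene whose normalised counts averaged 50 or more, bars are medians of lists of 3 or more, and dashed lines mark 1.5-fold. All 7 factors lie inside the lines at both times, and 5 of 12 CDX2-linked genes lie below them at 72 h, where 5.13% of all genes did.

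Genes listed for the stomach and for squamous epithelium had low counts. None of 14 reached a mean of 50, 4 had 0 counts in all libraries and the highest count was 108 (*Krt14*, butyrate at 48 h), where *Krt14* had 11 counts in untreated organoids at 48 h and 9 and 27 at 72 h. The parietal cell gene *Atp4a* was counted 16 and 6 times without butyrate (48 h, 72 h) and 73 and 13 times with it, and *Pdx1*, a factor of the antrum and duodenum, 3 and 4 times without and 22 and 8 times with it. Summed, the 14 gave 53.17 and 208.7 normalised counts at 48 h and 56.28 and 85.32 at 72 h. Of 6 small intestinal genes with a mean of at least 50, 3 were at least 1.5-fold higher and 1 lower at 48 h. At 72 h, 1 was higher and 4 lower. Of 8 colonic genes 4 were higher and 1 lower, then 1 higher and 2 lower. Shares of all genes higher and lower were 8.93% and 6.44% at 48 h, then 5.88% and 5.13%. The 7 epithelial genes had 0 past 1.5-fold at either time and medians of −0.05 at 48 h and −0.17 at 72 h, the latter beside −0.16 for the 7 factors.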

How the data were processed

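Per the labels and the methods, poly-A RNA of each organoid culture was sequenced, quantified with a kallisto-based pipeline (kallisto 0.44.0 and GRCm38.p6 in the submitters' processing notes) and summed to genes with tximport. The table the authors deposited holds counts in whole numbers under 36144 gene names; they are rounded estimates with no normalisation and no filter; the transcriptome release is not given in the sources used here. Size factors were computed with DESeq2 1.42.0 from the 13979 genes that 2 or more libraries counted above 10 times, and log2 fold changes after adding a pseudocount of 1 (R 4.3.3, Python 3.11.15, numpy 2.4.6, pandas 2.3.3, scipy 1.17.1, matplotlib 3.10.9). Shares, medians and neighbours used the 11652 genes whose normalised counts averaged 50 or more. Intervals are exact 95% Clopper-Pearson intervals on a pair of counts, exact Poisson intervals for levels, and, for the difference between times, from the Poisson variance of 4 counts. Since PCR copies were not told apart by molecular identifiers, a read is not a molecule, and the intervals and the floor (3 counts) describe counting error alone. With 1 library per condition no model was fitted.

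Exon lengths and positions came from GENCODE M21 (GRCm38), for 35859 names, and promoters from RefSeq. Named genes were the 7 factors, the 3 nearest genes of each, at most 3 genes per list with the largest change, and list genes near 0; *Ehf*, *Hoxd13*, *Ptprc*, *Krt14*, *Atp4a*, *Pdx1*, *Muc2*, *Mki67*, *Top2a*, *Ascl2*, *Mcm2*, *Krt20*, *Cdh17*, *Mep1b* and the epithelial genes other than *Cldn3*, *Cldn7* and *Cdh1* were named outside this rule, after their values were seen, and some genes the rule covers are not reported here. The factors and lists were chosen with earlier results of these data known, and are no independent support for any direction. Alternatives were TMM factors (edgeR 4.0.16), total count with and without mitochondrial genes, size factors from all genes, a pseudocount of 5, a 2-fold line, the looser filter, longest-transcript lengths and, chosen after seeing the data, scaling to 7 epithelial genes.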

Additional observations from a re-analysis of the deposited data

Results flagged for a closer look

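Of 31 genes examined, the 7 factors and the named list genes, 12 had butyrate effects of opposite sign at the 2 times, each with a counting interval clear of 0. Of all 11652 genes 11.3% met the same criterion; the list genes among the 31 were named for large changes, so their count is not comparable with that share. With 1 library per condition this difference between the times was not tested. Among the factors, the log2 fold changes (48 h, then 72 h) were 0.13 and −0.16 for *Cdx2* and 0.095 and −0.090 for *Isx*; with the epithelial scaling *Isx* was above 0 at both times and the 72 h interval of *Cdx2* included 0, so that neither met the criterion. That scaling took 5 of the 12 out of it, *Car4*, *Cdh1* and *Slc26a3* being the others, and left 7. Total count scaling gave −0.038 for *Isx* at 72 h, with no interval computed.

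Higher at 48 h and lower at 72 h were *Sis* (0.83 and −1.99), *Alpi*, an alkaline phosphatase gene of the brush border (0.57 and −1.54), *Myo1a* (0.35 and −0.93), *Car1* (1.14 and −0.88), *Car4* (1.87 and −0.39), *Slc26a3* (1.29 and −0.20) and *Cdh1*, the gene of E-cadherin (0.24 and −0.067). Lower at 48 h and higher at 72 h were the crypt base genes *Lgr5* (−0.94 and 0.79), *Smoc2* (−0.31 and 0.70) and *Axin2* (−0.14 and 0.62), whereas of the other 4 measured crypt and cycling genes *Ascl2* (0.19 and 0.47), *Mki67* (0.056 and 0.45) and *Top2a* (0.22 and 0.48) were higher at both times and *Mcm2* was at −0.0025, with an interval that included 0, and 0.29.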

How the results depend on the processing

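The labels give the 4 libraries no replicate numbers, so no fit with a replicate block was made; an additive model of treatment and time, which would take the difference between times as its error, was not fitted. Of the alternative values of the factors' log2 fold changes, 145 stayed within the main interval, 21 moved beyond it and 2 turned a value whose interval was clear of 0 to the other sign. Another 3 sign changes were of values whose interval included 0 (*Hnf4a* with butyrate at 48 h under 2 settings, *Hnf4g* over time with butyrate under total count). The 2 came at 72 h with scaling to the epithelial genes, which gave 0.062 for *Isx* and 0.030 for *Gata6* with butyrate. That scaling also gave −0.20 for *Cdx1*, −0.012 for *Cdx2*, −0.22 for *Hnf4a*, −0.28 for *Hnf4g* and 0.30 for *Elf3* with butyrate at 72 h. Over time it gave −0.18 for *Cdx1*, −0.29 for *Cdx2*, 0.050 for *Hnf4a*, −0.30 for *Isx*, −0.19 for *Gata6* and −0.97 for *Elf3* in untreated organoids, and −0.32 for *Cdx1*, −0.40 for *Cdx2*, −0.16 for *Hnf4a*, −0.31 for *Isx* and −0.63 for *Elf3* with butyrate. For the difference between times it gave −0.15 for *Cdx1*, −0.11 for *Cdx2*, −0.21 for *Hnf4a*, −0.0049 for *Isx*, 0.43 for *Gata6* and 0.34 for *Elf3*. It shifted the median of all genes by 0.15 at 72 h. Total count scaling gave −0.32 for *Hnf4a* with butyrate at 72 h and, over time in untreated organoids, −0.16 for *Cdx1*, −0.27 for *Cdx2*, 0.070 for *Hnf4a*, −0.29 for *Isx* and −0.95 for *Elf3*. It also gave list medians over time in untreated organoids of 0.017 (other factors), 0.030 (epithelial genes) and −0.44 (crypt genes), and epithelial medians of −0.12 with butyrate at 72 h and −0.11 over time with butyrate.

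TMM factors placed 1 factor, *Hnf4g*, at least 1.5-fold lower at 48 h, as did 4 of the 6 settings tried for it (TMM, size factors from all genes, total count without mitochondrial genes and the epithelial scaling), with values from −0.57 to −0.61 over the 6. At 2-fold, 0 factors were lower over time in either treatment, and the share of genes higher and lower was 3.93% and 1.54% with butyrate at 48 h, 2.33% and 1.6% at 72 h, 0.755% and 0.841% over time in untreated organoids, and 1.66% and 2.51% with butyrate. The looser filter gave 9.5% and 8.53% with butyrate at 72 h and 6.82% and 5.17% over time in untreated organoids. It gave medians of −0.018 for the other factors at 48 h, −0.31 for the HNF4 list at 72 h and 0.35 for crypt genes over time with butyrate. Longest-transcript lengths changed the place of 2 factors with butyrate at 48 h and of 2 in untreated organoids at 72 h. Beyond the construction of each setting, the cause was not tested. Depth limits *Hnf4g*, at 165 to 261 counts. Replicate error was not measured for any factor, so it cannot be ranked against counting error.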
